A study of Homo sapiens with 8 samples.

Results

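The genes described here encode the proteins of the small (40S) subunit of the cytosolic ribosome. They were taken by symbol from a list of 29 functional genes, pseudogenes excluded, and all 29 are among the 60606 genes of the count table. RNA came from the established human cell line HEK293, of embryonic kidney origin. Treated cells were transfected with a synthetic tRNA-derived small RNA (tDR) that mimics the 3′ piece of tRNA-Asp-GTC, and control cells with a scrambled sequence. Both groups received 50 nM of mimic with the same lipid reagent, were collected after 48 hours and hold 4 libraries each. Whether these were independent cultures is not in the labels, so the p-values reflect variation among the 8 libraries only, and that variation may be technical. RNA was measured in bulk, so a lower level in all cells and in a part of them cannot be told apart. Levels are relative to the other RNA of each library, so a fall in these mRNAs cannot be told from a rise in other RNA.

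The 40S subunit binds the mRNA, scans for the start codon and decodes each codon, while the large (60S) subunit joins the amino acids. Its proteins surround a single ribosomal RNA and are needed in equal numbers, and those made in excess are degraded. Their mRNAs are abundant, are made in every cell and typically begin with a run of pyrimidines, the terminal oligopyrimidine (TOP) start, through which mTOR and the RNA-binding protein LARP1 control their translation and stability.

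Total counts lay between 5848305 and 9237986 in the tDR libraries and between 6536554 and 10557740 in the control libraries. The first principal component of log2 CPM (counts scaled to library size) accounted for 39.6% of the variance and placed the groups apart. Of markers chosen for HEK293 cells, 8 of 8 were detected, and their summed level was 764 to 810 CPM in tDR libraries and 828 to 902 CPM in control libraries. The mean of 5 of the 8 was nonetheless higher with the tDR, and NEFM, LIN28B and CDH2, which make up much of the sum, had lower means. Endothelial markers summed to 12.2 to 14.1 CPM in tDR libraries and 5.25 to 8.10 CPM in control libraries, with all 3 higher on average with the tDR. Fibroblast and muscle markers summed to 9.33 to 12.5 CPM with the tDR and 5.56 to 9.17 CPM in controls, and mature tubule markers, with AQP2 at 0, to 1.43 to 3.97 CPM and 0.589 to 1.27 CPM in tDR and control libraries. Blood markers (3.22 to 5.35 and 2.74 to 4.77 CPM) and hepatocyte markers (0.169 to 0.524 and 0.109 to 0.318 CPM, tDR and control libraries) overlapped between the groups. Their part in the results below was not tested.

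Transcripts of 25 of the 27 testable 40S protein genes were lower in cells given the tDR, and none was higher. The decreases were small, with a median log2 fold change of -0.24 and single values between -0.45 and -0.12, and all 27 genes had a lower mean in the tDR libraries. The test was edgeR's quasi-likelihood F test over 17184 genes on counts scaled with TMM factors, with a call at a Benjamini-Hochberg adjusted p under 0.05. Over all genes tested, 11.4% were called lower and 12.8% higher, and the median log2 fold change was 0.02. The tDR group lay wholly below the control group in 18 of the 27 genes, against 10.8% of all genes tested. RPS10 (chromosome 6, 34417454 to 34426125) and RPS4X (chromosome X, 72255679 to 72277300) were listed at 0 counts in all 8 libraries and were not tested. Both are used by every cell, and the whole span of RPS4X overlaps PIN4 on the opposite strand, while nearly all of RPS10 overlaps the readthrough gene RPS10-NUDT3. PIN4 held 3024 counts and RPS10-NUDT3 308 counts over all libraries. Counting of reads in overlapping genes was not given in the sources used here. These values therefore say nothing of how much of either mRNA was present.

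The size of this difference depended on how expression level and gene structure were treated. With all genes tested ranked by level and cut into 10 equal groups, the median log2 fold change was 0.46 in the lowest group and -0.11 in the highest. At the levels that these 27 genes span, 21.7% of 8160 other genes were called lower. Genes other than these 27 that lay above the median level of the 27 were called lower in 54.4% of 788 cases, with a median log2 fold change of -0.14. When each library was scaled by a smooth curve over expression level, an alternative added after the data were seen, 12 of the 27 genes were called lower, with a median log2 fold change of -0.13. A correction for genomic span and GC content, also added, likewise left 12 calls and gave a median of -0.11. A correction for transcript length and GC content left 26 calls and gave -0.28. It took 1 annotated transcript per gene, such as 3437 bases for RPS23 and 6434 for RPS27L. Whether these are the transcripts present in the cells was not tested. Under all 17 alternatives, 8 genes were called lower each time: RPS26, RPS23, RPS24, RPS16, RPS15A, RPS20, RPS14 and RPS18. These 8 are counted as a description, since the settings share the same libraries.

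**Figure D1:**
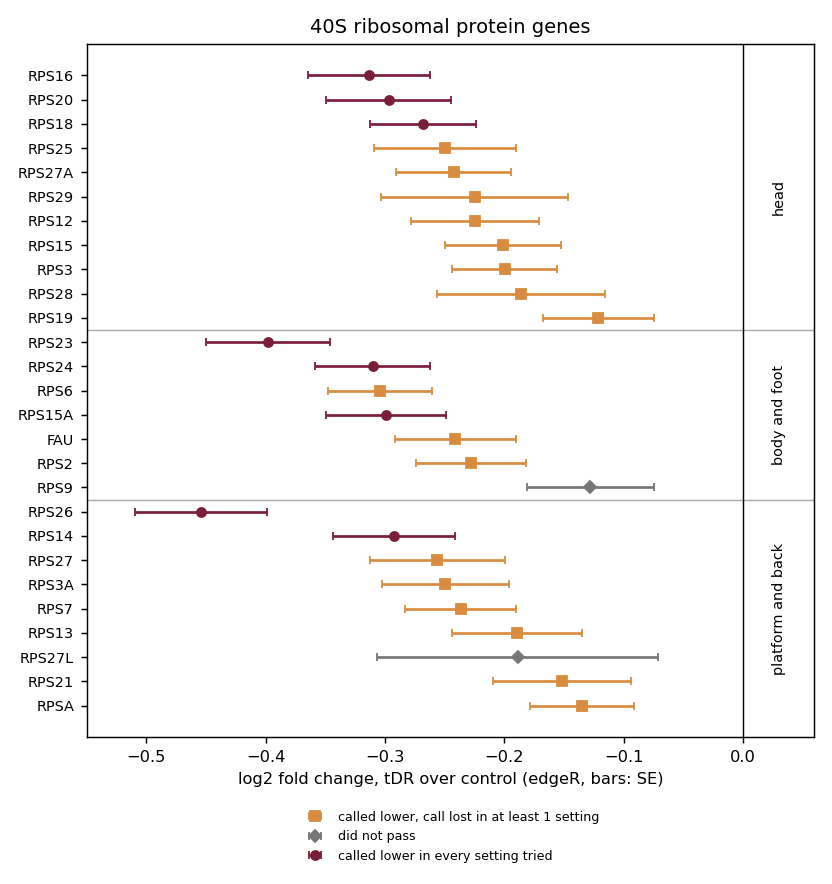
Log2 fold change of tDR over control libraries (horizontal axis) for each of the 27 tested genes, grouped by position in the 40S subunit; points are edgeR estimates and bars their SE. All points lie left of 0, RPS26 at -0.45 is the farthest, and filled circles mark the 8 genes called lower under each of the settings tried.

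**Figure D2:**
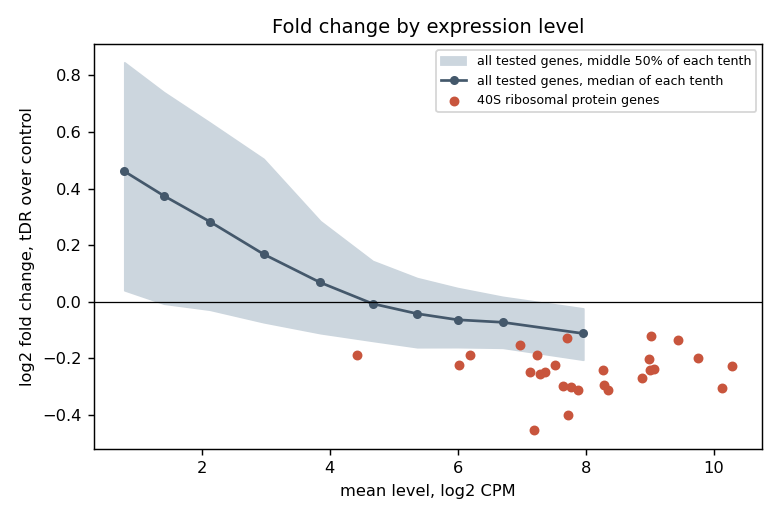
Log2 fold change against mean level in log2 CPM for the 40S protein genes (points) and for all 17184 tested genes in 10 equal groups by level (line, median; band, middle 50%). The line descends from 0.46 to -0.11 with rising level, and the points within its range lie below it. It ends at a mean log2 CPM of 7.96. RPS6, RPS2, RPS3 and RPSA are among the genes beyond its end, where it gives no comparison.

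Starts of the genes are shown first, because the TOP start is the sequence feature that ribosomal protein mRNAs are known to share. The RefSeq promoter table (GRCh38.p14) held 26 of the 29 genes. A TOP start was scored when the annotated first base was C and at least 4 further pyrimidines followed it without a break. By this rule 19 of the 26 genes had a TOP start at 1 or more annotated starts (73.1%), against 5.14% of 27305 genes in the table. The share was 73.7% for 38 genes of 60S proteins and 8 of 10 for non-ribosomal genes listed for their TOP mRNA. The sequences run from 40 bases before the annotated first base to 20 bases into the transcript, 5′ to 3′ on the gene's strand, and capitals mark the unbroken run of C and T that holds the first base. The first 4 belong to genes called lower in all settings, RPS6 is the most abundant per kb of coding sequence, and the last 2 are paralogs.
RPS26, chr12:56041878-56041937, plus strand: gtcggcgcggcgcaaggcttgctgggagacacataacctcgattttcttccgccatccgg
RPS23, chr5:82278335-82278394, minus strand: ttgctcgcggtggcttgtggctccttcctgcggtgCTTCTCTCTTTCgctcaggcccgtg
RPS24, chr10:78033823-78033882, plus strand: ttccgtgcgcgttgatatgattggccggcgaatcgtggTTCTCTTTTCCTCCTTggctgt
RPS14, chr5:150449720-150449779, minus strand: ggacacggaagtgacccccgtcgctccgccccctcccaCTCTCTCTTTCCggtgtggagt
RPS6, chr9:19380217-19380276, minus strand: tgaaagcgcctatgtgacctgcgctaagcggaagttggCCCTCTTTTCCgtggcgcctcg
RPS27, chr1:153990722-153990781, plus strand: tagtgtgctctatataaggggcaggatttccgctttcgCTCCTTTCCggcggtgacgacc
RPS27L, chr15:63157458-63157517, minus strand: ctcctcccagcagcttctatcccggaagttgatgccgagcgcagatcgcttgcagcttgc

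In RPS26 the annotated first base was G and a stretch rich in pyrimidines followed it, while RPS27L had G at the first base and no such stretch beside it. The 18 tested genes with a TOP start had a median log2 fold change of -0.25 and 17 of them were called lower. The 6 tested genes without one (RPS7, RPS15, RPS26, RPS27L, RPS28 and RPS29) had a median of -0.21, and 5 were called lower, RPS26 with the largest decrease of all 27. In RPS7 the annotated start lay inside a run of 11 pyrimidines, so the rule depends on where the start is placed. The letters CCGGAA, the core bound by ETS factors, occurred on either strand in 17 of the 26 promoters (65.4%) over 300 bases, against 20.1% of all genes in the table. The share was 52.6% for 38 genes of 60S proteins and 4 of 10 for the non-ribosomal genes listed for their TOP mRNA. A match is a description of the letters and does not show binding.

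Levels of the genes differed far more between genes than between groups. Per kb of coding sequence, RPS6 was the most abundant, at 1342 CPM per kb in tDR and 1656 CPM per kb in control libraries. RPS15 at 1337 and 1536 CPM per kb and RPS2 at 1311 and 1535 CPM per kb followed, in tDR and control libraries. RPS27L was the least abundant, at 80.3 CPM per kb in tDR and 90.6 CPM per kb in control libraries, and RPS3A was next at 189 and 225. The scale divides by coding length alone and leaves out the untranslated parts, so close neighbours in this order cannot be ranked. Coding length came from 1 annotated transcript per gene, at 354 bases for RPS15 and 867 for RPS24. Whether that transcript is the one used in these cells was not tested, so the place of RPS15 is uncertain. Over the 27 genes, log2 fold change had a Pearson r of 0.03 and a Spearman rho of -0.05 with coding length. The values were 0.0047 and -0.06 with mean level, and 0.38 and 0.38 with the GC content of the same annotated transcript. Over 16693 tested genes they were -0.47 and -0.44 with mean level, and 0.07 and 0.11 with GC content. These correlations are across genes that share the 8 libraries and carry no p.

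Summed over the 27 genes, the tDR libraries held 9415, 8898, 8820 and 8599 CPM in replicates 1, 2, 3 and 4, and the control libraries 10044, 10563, 10799 and 10705 CPM. The groups did not overlap, and averaged 8933 ± 345 CPM with the tDR and 10528 ± 337 CPM with the scramble (SD, n = 4 each), a difference of -15.1%. As a share of all counts the genes took 0.888% to 0.951% in tDR libraries and 0.979% to 1.04% in control libraries. The closest pair was tDR replicate 1 at 0.951% (exact 95% interval 0.943% to 0.959%, counting error only) and control replicate 1 at 0.979% (0.972% to 0.985%). Within the tDR group, replicate 1 was the highest library in 21 of the 27 genes and replicate 4 the lowest in 18. In the control group, replicate 1 was the lowest in 13 genes and the highest in 10.

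The summed mRNA of 41 tested 60S protein genes was 19281 ± 516 CPM in tDR libraries and 22718 ± 767 CPM in control libraries (SD, n = 4 each), a difference of -15.1%. The ratio of 40S to 60S mRNA was therefore nearly equal, at 0.473, 0.457, 0.464 and 0.459 in tDR replicates 1 to 4 and 0.465, 0.453, 0.469 and 0.467 in control replicates 1 to 4. The groups overlapped, and their means were 0.463 ± 0.00713 and 0.463 ± 0.00710 (SD, n = 4 each, tDR and control). Among the 60S genes 35 of 41 were lower and none was higher, with a median log2 fold change of -0.24. The count for the 60S genes was 17 with the span and GC correction (median -0.08) and 17 with level-dependent scaling (median -0.12). RPL24 (-0.44) and RPL6 (-0.36) had the smallest p.

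**Figure D3:**
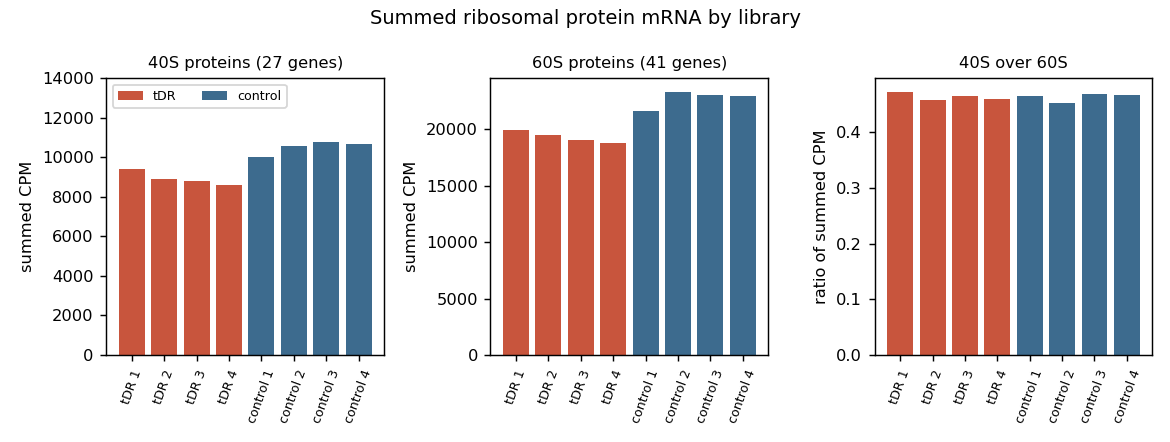
Summed CPM of the 27 genes of 40S proteins, of the 41 genes of 60S proteins and their ratio, 1 bar per library, with the 4 tDR libraries left of the 4 control libraries. Both sums are lower in each tDR library than in any control library, while the ratio stays between 0.453 and 0.473 in all 8.

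Head of the subunit. The head moves during translocation and holds the decoding side of the tRNA sites. All 11 tested genes of head proteins fell. Their median log2 fold change was -0.22, with a range of -0.31 to -0.12. Of the 11, 7 were called lower with library size alone or with background subtracted, 6 with the span and GC correction (median -0.11) and 4 with level-dependent scaling (median -0.13). RPS16, whose protein reaches the tRNA in the P site, averaged 211 ± 13.9 CPM with the tDR and 262 ± 11.5 CPM in controls (SD, n = 4; log2 fold change -0.31 ± 0.051, SE; adjusted p = 4.72e-06). RPS20, also of the head, averaged 180 ± 4.14 and 220 ± 16.4 CPM in tDR and control libraries (-0.30; adjusted p = 2.09e-05). RPS18, which contacts the large subunit, averaged 426 ± 10.63 CPM with the tDR and 513 ± 15.8 CPM in controls (-0.27; adjusted p = 6.68e-06). In these 3 genes the groups did not overlap. RPS3, at the mRNA entry channel and a target of ubiquitin ligases when ribosomes collide, averaged 807 ± 35.1 CPM with the tDR and 927 ± 44.9 CPM in controls (-0.20; adjusted p = 0.000476, and 0.731 with level-dependent scaling). RPS12 of the beak (-0.22), RPS25, which some viral internal ribosome entry sites need (-0.25), and RPS15 (-0.20) also fell. RPS12 and RPS15 lost their calls with level-dependent scaling, at -0.13 and -0.06, and RPS12 and RPS25 with the span and GC correction, at -0.06 and -0.09. RPS15 also lost its call with library size alone (-0.12) and with background subtracted (-0.14), though its estimated background was only 0.0086% of its counts.

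RPS27A, which encodes ubiquitin fused to a ribosomal protein of the beak, stood at 516, 472, 449 and 454 CPM in tDR replicates 1 to 4 and at 514, 560, 601 and 562 CPM in control replicates 1 to 4. Only tDR replicate 1 reached into the control range, just above control replicate 1. Its log2 fold change was -0.24 ± 0.048 (SE; adjusted p = 0.000118), and -0.10 and -0.02 with level-dependent scaling and with the span and GC correction, neither of which was called. In the remaining head genes the call was lost when any 1 of several libraries was left out. RPS19, the gene most often mutated in Diamond-Blackfan anaemia, averaged 498 ± 14.0 CPM with the tDR and 541 ± 37.6 CPM in controls (-0.12; adjusted p = 0.0483). It lost its call without tDR replicate 2 (-0.12), 3 (-0.13) or 4 (-0.11) and without control replicate 3 (-0.11) or 4 (-0.12), and was at 0.03 with level-dependent scaling. Nor did RPS19 pass with library size alone (-0.04), background subtracted (-0.06) or the span and GC correction (-0.05). RPS28 (-0.19; adjusted p = 0.045) lost its call without tDR replicate 2 (-0.17) or 4 (-0.16) or control replicate 3 (-0.18) or 4 (-0.17). RPS29 (-0.22; adjusted p = 0.0292) lost it without the same libraries, at -0.21, -0.18, -0.18 and -0.19 in that order. With the span and GC correction RPS28 was at -0.02 (adjusted p = 0.886). Neither RPS28 nor RPS29 passed with library size alone (-0.10 and -0.14), background subtracted (-0.13 and -0.18) or level-dependent scaling (-0.13 and -0.17). Both encode very small proteins of the head, and their groups overlapped.

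Body and foot. The body carries the mRNA channel and, with the head, the decoding centre. Of its 7 tested genes 6 fell and RPS9 did not pass, with a median of -0.30, where 11.4% of all genes tested fell. Both added corrections left 4 of the 7 called, with medians of -0.16 for span and GC and -0.12 for level-dependent scaling. RPS23 (chromosome 5, 82273358 to 82278577), whose protein lies at the decoding centre and is needed for accuracy, stood at 175, 197, 184 and 175 CPM in tDR replicates 1 to 4 and at 257, 243, 239 and 225 CPM in control replicates 1 to 4. All tDR libraries lay below all control libraries. The mean was 183 ± 10.4 CPM with the tDR and 241 ± 13.03 CPM in controls, and the log2 fold change was -0.40 ± 0.052 (SE; adjusted p = 4.49e-08). With level-dependent scaling it was -0.30 and with the span and GC correction -0.19, and both passed. RPS23 overlaps ATG10 on the opposite strand over 3500 bases, and ATG10 held 3777 counts over all libraries, so some reads of either gene are uncertain.

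RPS6 (chromosome 9, 19375715 to 19380254) encodes the protein that S6 kinase phosphorylates below mTOR. It stood at 1090, 1010, 989 and 920 CPM in tDR replicates 1 to 4 and at 1212, 1237, 1276 and 1224 CPM in control replicates 1 to 4. The groups did not overlap, and the spread of the controls was small. The log2 fold change was -0.30 ± 0.044 (SE; adjusted p = 3.83e-07), a difference of -19.0%. It was -0.11 and called with level-dependent scaling, and -0.06 and not called with the span and GC correction (adjusted p = 0.303).

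RPS24, in the foot of the subunit and mutated in some Diamond-Blackfan families, averaged 292 ± 15.6 CPM with the tDR and 361 ± 15.5 CPM in controls (-0.31; adjusted p = 1.8e-06). RPS15A averaged 196 ± 6.38 CPM with the tDR and 241 ± 11.7 CPM in controls (-0.30; adjusted p = 8.38e-06). In both genes the groups did not overlap. RPS2, at the entry of the mRNA channel, averaged 1153 ± 71.2 CPM with the tDR and 1349 ± 99.8 CPM in controls (-0.23; adjusted p = 0.000151), with tDR replicate 1 inside the control range. With level-dependent scaling RPS2 was at -0.03 and with the span and GC correction at -0.09, and neither passed.

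FAU encodes a ubiquitin-like protein fused to a ribosomal protein of the body. It stood at 297, 283, 281 and 274 CPM in tDR replicates 1 to 4 and at 306, 379, 325 and 331 CPM in control replicates 1 to 4. The groups lay close together without overlap, and control replicate 2 was the highest. The log2 fold change was -0.24 ± 0.051 (SE; adjusted p = 0.000292), and -0.12 and -0.11 with level-dependent scaling and the span and GC correction, where it did not pass. FAU shares 694 bases with SYVN1 on the same strand, and SYVN1 held 1930 counts over all libraries. The ratio of FAU to RPS27A, the other gene made as a fusion, differed between tDR and control libraries by 0.01 on the log2 scale (exact two-sided permutation p = 0.943, Benjamini-Hochberg adjusted p = 0.943 over 2 pairs).

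RPS9, whose protein sits at the mRNA entry and contributes to accuracy, stood at 210, 185, 207 and 199 CPM in tDR replicates 1 to 4 and at 200, 213, 239 and 225 CPM in control replicates 1 to 4. The groups overlapped. Its log2 fold change was -0.13 ± 0.053 (SE; adjusted p = 0.0704). RPS9 was called lower under 8 of the 17 alternatives. These were RLE factors (-0.14, adjusted p = 0.0476), DESeq2 (-0.16, adjusted p = 0.0355), no filter on low counts (-0.16), the transcript length and GC correction (-0.17), the span and GC correction (-0.21), and the fits without tDR replicate 1 (-0.16), control replicate 1 (-0.17) or control replicate 2 (-0.15).

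**Figure D4:**
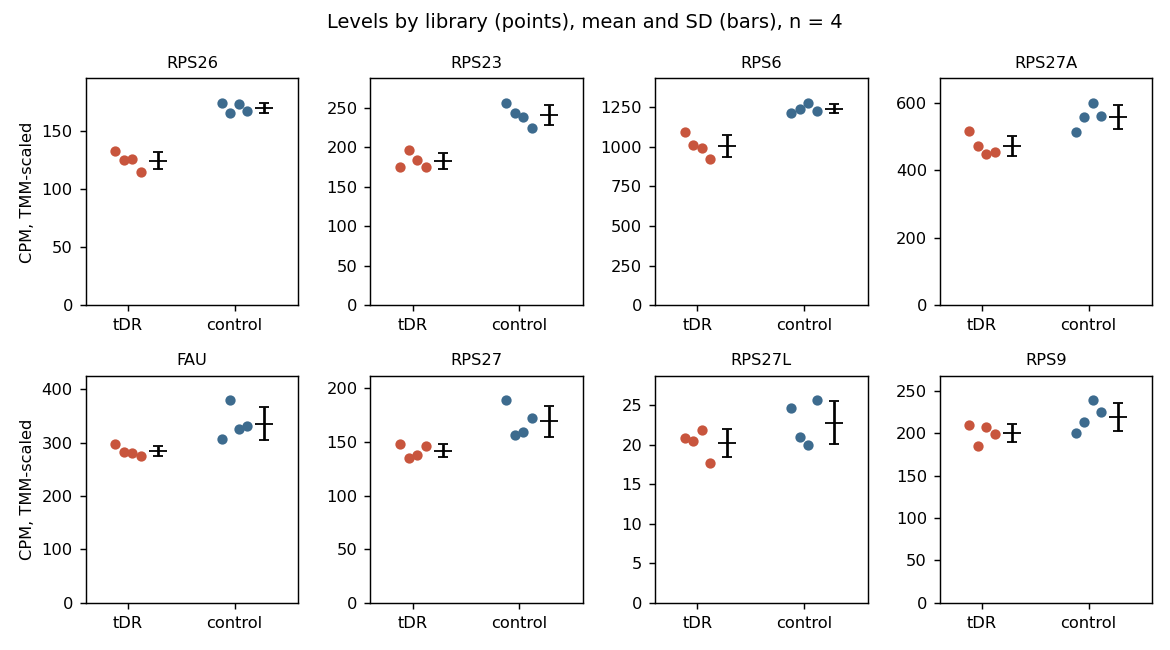
CPM of 8 genes in each library (points, 4 tDR libraries left and 4 control libraries right in each panel), with mean and SD beside them. The groups are apart in RPS26, RPS23, RPS6, FAU and RPS27, and overlap in RPS27A, RPS27L and RPS9.

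Platform and back. The platform lines the exit of the mRNA channel and is completed late in assembly. Of its 9 genes 8 fell and RPS27L did not pass, with a median of -0.24, where 11.4% of all genes tested fell. Of the 9, 5 were called lower with library size alone or with background subtracted, 2 with the span and GC correction (median -0.06) and 4 with level-dependent scaling (median -0.16). RPS26 (chromosome 12, 56041351 to 56044697), whose protein contacts the mRNA upstream of the start codon and is mutated in some Diamond-Blackfan families, had the largest decrease of the 27 genes. It stood at 132, 125, 125 and 114 CPM in tDR replicates 1 to 4 and at 174, 165, 173 and 167 CPM in control replicates 1 to 4. The groups were well apart. The mean was 124 ± 7.45 CPM with the tDR and 170 ± 4.25 CPM in controls, and the log2 fold change was -0.45 ± 0.055 (SE; adjusted p = 5.86e-09), a difference of -27.0%. It was called under all 17 alternatives, with values between -0.49 and -0.27.

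Relative to the summed CPM of the other 26 genes, RPS26 made up 1.42%, 1.42%, 1.44% and 1.35% in tDR replicates 1 to 4 and 1.76%, 1.59%, 1.62% and 1.58% in control replicates 1 to 4. The groups did not overlap on this ratio, which needs no scaling between libraries. RPS26 was singled out after its values were seen, so the ratio has no test. TSR2, the chaperone that carries the RPS26 protein to the subunit, was also chosen after its values were seen. It averaged 67.9 ± 7.72 CPM with the tDR and 81.7 ± 9.44 CPM in controls (-0.27; adjusted p = 0.00585). TSR2 is 1 of 17 tested assembly factors of the 40S subunit, of which 6 fell and 11 did not pass. A link between TSR2 and RPS26 was not tested.

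RPS14, the gene whose loss underlies the anaemia of the 5q deletion syndrome, averaged 280 ± 14.3 CPM with the tDR and 343 ± 28.2 CPM in controls (-0.29; adjusted p = 1.67e-05). RPS3A averaged 150 ± 9.62 CPM with the tDR and 178 ± 2.46 CPM in controls (-0.25; adjusted p = 0.000365). RPS7, whose protein also binds MDM2, averaged 491 ± 15.2 CPM with the tDR and 578 ± 40.6 CPM in controls (-0.24; adjusted p = 0.000116). In these 3 genes all tDR libraries lay below all control libraries. RPS7 was at -0.09 with level-dependent scaling and at -0.10 with the span and GC correction, and RPS3A was at -0.03 with the span and GC correction, and none of these passed. RPS3A overlaps SH3D19 on the opposite strand over 1902 bases, and SH3D19 held 10924 counts over all libraries.

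RPS13 (-0.19; adjusted p = 0.0078), RPSA (-0.13; adjusted p = 0.0184) and RPS21 (-0.15; adjusted p = 0.0461) had the smaller decreases of this group. RPSA doubles as the laminin receptor, and its groups lay apart by a small margin, at most 672 CPM with the tDR and at least 674 CPM in controls. RPSA lost its call without tDR replicate 2 (-0.13) or control replicate 4 (-0.12), with library size alone (-0.05) and with background subtracted (-0.08). It was at 0.03 with level-dependent scaling and at 0.01 with the span and GC correction. RPS21 lost its call without tDR replicate 2 (-0.15), 3 (-0.15) or 4 (-0.12) and without control replicate 1 (-0.15), 3 (-0.17) or 4 (-0.15). RPS13 and RPS21 did not pass with library size alone (-0.11 and -0.07), with background subtracted (-0.13 and -0.095) or with level-dependent scaling (-0.10 and -0.07). With the span and GC correction RPS13 was at -0.01 (adjusted p = 0.884) and RPS21 at 0.02 (adjusted p = 0.863).

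RPS27 and RPS27L encode near-identical proteins, and RPS27L is known as a p53 target. RPS27 stood at 148, 135, 138 and 146 CPM in tDR replicates 1 to 4 and at 189, 157, 159 and 172 CPM in control replicates 1 to 4. The groups did not overlap, and the log2 fold change was -0.26 ± 0.057 (SE; adjusted p = 0.000539). With the span and GC correction it was -0.06 and did not pass. RPS27L stood far lower, at 20.8, 20.5, 21.9 and 17.7 CPM in tDR replicates 1 to 4 and at 24.6, 21.0, 20.02 and 25.6 CPM in control replicates 1 to 4. The groups overlapped, and its log2 fold change of -0.19 ± 0.118 (SE; adjusted p = 0.248) did not pass under any setting. The log2 ratio of RPS27L to RPS27 averaged -2.81 ± 0.169 with the tDR and -2.89 ± 0.102 in controls (SD, n = 4), a difference of 0.08 (exact two-sided permutation p = 0.457, Benjamini-Hochberg adjusted p = 0.914 over 2 pairs). The smallest p that the 70 assignments allow is 0.0286, and a p above the threshold does not show that the paralogs act alike. RPS27L overlaps LACTB on the opposite strand, and LACTB held 238 counts over all libraries.

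**Figure D5:**
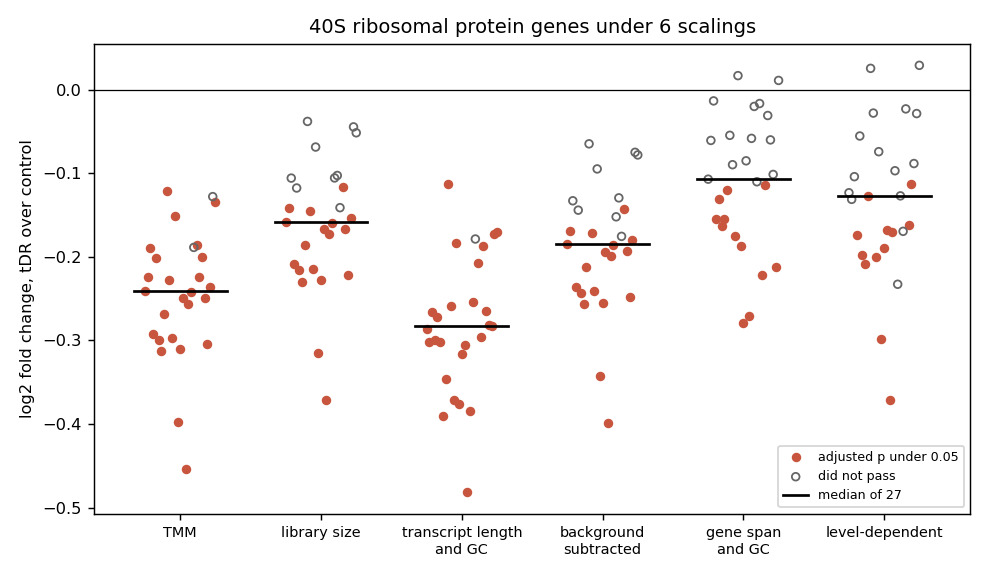
Log2 fold change of tDR over control libraries for the 27 genes (1 point each, in alphabetical order within a column) under 6 ways of scaling, with filled points past an adjusted p of 0.05 and a bar at the median. The medians are -0.24, -0.16, -0.28, -0.19, -0.11 and -0.13 from left to right.

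Genes around the 40S subunit were read out of the same fit. In that fit 11.4% of all genes tested were called lower, and 7.37% with level-dependent scaling. Among genes other than those of 40S proteins, the fit called 21.7% lower at the levels that the 40S protein genes span. Above the median level of the 40S protein genes it called 54.4% lower. Whether any list below fell more often than other genes of like level was not tested. Of 14 tested non-ribosomal genes listed for a TOP mRNA 10 fell and none rose. Their median log2 fold change was -0.21, and they were led by NPM1, a nucleolar chaperone of ribosome assembly (2303 ± 118 CPM with the tDR, 3100 ± 58.1 CPM in controls, -0.43), and NAP1L1 (-0.32). With level-dependent scaling 2 of the 14 were called lower and 1 higher, with a median of -0.07, and with the span and GC correction 6 were called lower (median -0.13). Of 17 tested assembly factors of the 40S subunit 6 fell and none rose, with a median of -0.15. UTP20, of the early precursor (-0.31), and RIOK1, a kinase of late maturation (-0.29), had the smallest p. The count for assembly factors was 3 without tDR replicate 3, 10 without control replicate 1, and 3 with library size alone, background subtraction or level-dependent scaling.

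Of 11 tested genes for ubiquitination of the 40S subunit and rescue of stalled ribosomes 6 fell, with a median of -0.13. This count, too, was not compared with that of other genes of like level. G3BP1, which with USP10 removes ubiquitin from 40S proteins, was at -0.27 and ASCC3, a helicase that splits collided ribosomes, at -0.21. Without tDR replicate 3 or 4 the count was 3 or 2, and it was 3 with the transcript length and GC correction and 2 with background subtracted. With library size alone 2 were lower and 1 higher, and with level-dependent scaling 1 was lower and 1 higher. Of 11 genes of mTOR and LARP1 control, MLST8, a subunit of the mTOR complexes, fell (-0.31; adjusted p = 0.000223) and TSC1, an inhibitor of the pathway, rose (0.17; adjusted p = 0.0487). The call of TSC1 was lost with any 1 library left out. The balance of calls in this list turned with the scaling. With library size alone 3 were higher and 1 lower, with level-dependent scaling 4 were higher and 1 lower, and with the span and GC correction none was higher and 5 were lower. LARP1 itself averaged 872 ± 25.04 CPM with the tDR and 889 ± 23.2 CPM in controls (-0.03; adjusted p = 0.688).

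Close copies and hosted RNAs of these genes were also counted. The table held 447 pseudogenes named after the 40S protein genes, of which 295 were at 0 in all libraries. Together they held between 0.583% and 0.710% of the counts of the 27 genes in tDR libraries and between 0.581% and 0.602% in control libraries, and of 12 tested none was called (edgeR). Counting of reads shared with pseudogenes was not given in the sources used here. The 14 small nucleolar RNAs listed for introns of these genes were at 0 counts in all libraries. Background estimated from 381 olfactory receptor genes came to under 1% of counts in 26 of the 27 genes and to 3.07% in RPS27L. Subtracting it moved the median log2 fold change of the 27 genes from -0.24 to -0.19. RPS15, with a background of 0.0086%, moved from -0.20 to -0.14, and RPS26, with 0.049%, from -0.45 to -0.40. Why genes with so little background moved was not tested.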

How the data were processed

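As deposited by the authors, the data are raw counts per gene in whole numbers, in 1 table of 8 libraries, not normalized. TRIzol-extracted RNA was sequenced with a strand-preserving kit for low input, per the labels' protocols. The submitters' processing notes name featureCounts 2.0.2, STAR 2.7.8a, DESeq2 1.30.1, cutadapt 2.10 and FastQC 0.11.9, with GRCh38.p13 and hg38. Strand setting, annotation release and multimapping were not given in the sources used here.

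The 40S protein genes and all gene lists were chosen with earlier results of these data known. Named genes are all 29 genes of the list and, of each context list, the 2 with the smallest p, with LARP1 and TSR2 added after their values were seen. Counts were fitted in edgeR 4.0.16 (R 4.3.3) with TMM factors, edgeR's filter on low counts (17184 genes) and group as the only term. Log2 fold changes are tDR over control. SE is the absolute log2 fold change divided by the square root of F. CPM use TMM-scaled library sizes. Ratios within a library used counts plus 0.5 and exact permutation. GENCODE 29 (GRCh38) gave positions, coding length, transcript length and GC for 94.1% of genes and 97.1% of those tested. Lengths and GC came from 1 transcript per gene. Pairs of replicates differed by more than counting noise (chi-square per degree of freedom 2.13 to 4.46). The edgeR fit was tested on simulated counts, with changes given to genes drawn at random from those tested. It recovered 36% of 1.3-fold, 66% of 1.5-fold and 88% of 2-fold changes, and 6.62% of its calls were false. Alternatives were library size alone, RLE factors, DESeq2 1.42.0, no filter, transcript length and GC correction, subtraction of background estimated from olfactory receptor genes, a replicate block and leaving out each library, with span and GC correction and level-dependent scaling added after the data were seen.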

Additional observations from a re-analysis of the deposited data

How the results depend on the processing

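Of the 15 alternatives chosen at the start and 2 added after the data were seen, none called any of the 27 genes higher. The count called lower stayed within 1.5 times of 25 under the 15, was 18 with library size alone and with background subtracted, and 12 under each added one, gene span and GC correction and level-dependent scaling. The median log2 fold change moved to -0.16 with library size alone, to -0.19 with background subtracted, to -0.11 with the span and GC correction and to -0.13 with level-dependent scaling, and the log2 ratio of summed CPM, -0.24 at first, to -0.15, -0.18, -0.10 and -0.091. With library size alone the median of all genes was 0.10, and the 27 genes lay at -0.26 relative to it, as with TMM. These 2 scalings differ by 1 factor per library, so this distance could hardly differ between them. It was -0.13 with the span and GC correction and -0.12 with level-dependent scaling. With library size alone all genes split into 3295 higher and 907 lower, against 2206 and 1962 with TMM and 1433 and 2131 with DESeq2. Leaving out 1 library at a time gave 20 to 26 lower calls, medians of -0.28 to -0.22 and summed ratios of -0.27 to -0.22. Signs turned in RPSA (0.011) and RPS21 (0.017) with the span and GC correction, in RPS19 (0.025) and RPSA (0.029) with level-dependent scaling, and in the median of the 40S pseudogenes, -0.06 at first, with library size alone (0.019), DESeq2 (0.12), no filter (0.11) and the span and GC correction (0.073). The difference in the ratio of FAU to RPS27A ranged from -0.044 to 0.065 with 1 library left out, and that of RPS27L to RPS27 from 0.03 to 0.16. The causes of these shifts were not tested. Same-numbered libraries did not deviate together (correlations -0.01, 0.07, -0.03 and 0.02), and with the replicate block 23 genes were called lower with a median of -0.24, RPS19 (-0.12) and RPS21 (-0.15) losing their calls. RPS28, RPS29 and RPS27L had the lowest counts and the widest errors.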
